A study of Homo sapiens with 6 samples.

Results

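Direct TGF-β response genes are genes that SMAD transcription factors act on soon after the receptor is engaged, together with genes that store the ligand or dampen the signal. The 9 genes described here were taken by name from the deposited expression table, which holds 31016 genes: SKIL, PMEPA1, TGFBI, TGIF1, CDKN2B, THBS1, BAMBI, LTBP3 and LTBP4. All 9 were found once in the table, and all 9 were abundant enough to be tested. They were compared between DLD-1 cells given TGF-β and TFA (libraries TGFb_TFA 1 to 3) and DLD-1 cells that had TGF-β without TFA (libraries TGFb 1 to 3). DLD-1 is a human colorectal adenocarcinoma line, and TFA is the total flavone of the plant Abelmoschus manihot. The labels give 24, 25 and 26 hours of treatment for libraries 1, 2 and 3 of each group, while the design text of the series gives 24 hours of TGF-β before TFA. Every library came from cells given TGF-β, and cells without it were not analysed here. The values therefore compare levels under TGF-β and do not show whether TGF-β had induced a gene in these cells.

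TGF-β is secreted in a latent complex that latent TGF-β binding proteins tether to the extracellular matrix. Once released, it brings its type I and type II receptors together. The type I receptor phosphorylates SMAD2 and SMAD3, which enter the nucleus with SMAD4. Among the genes they switch on are inhibitors that limit the signal at the receptor, at the SMADs and on DNA. In normal colonic epithelium the pathway restrains growth, and in carcinoma cells it is known for driving loss of epithelial character.

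None of the 9 genes was called higher or lower with TFA. Their fitted log2 fold changes ran from -0.20 (PMEPA1) to 0.20 (CDKN2B), with 4 values above 0 and 5 below, and every 95% interval held 0. In edgeR's quasi-likelihood test, 0 of 9 passed at a Benjamini-Hochberg adjusted p under 0.05, against 0.0109% of the 18265 genes tested in either direction, and each of the 9 had an adjusted p of 0.9997. At an unadjusted p under 0.05 there were also 0 of 9, against 1.83% of all genes tested. DESeq2 called 0 of 9, and limma on FPKM called 0 of the 7 genes high enough for it. The median log2 fold change of the 9 genes was -0.03, beside 0.01 over all genes tested. Since 1.83% of 9 genes is less than 1 gene, these counts do not set the 9 genes apart from the rest.

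**Figure D1:**
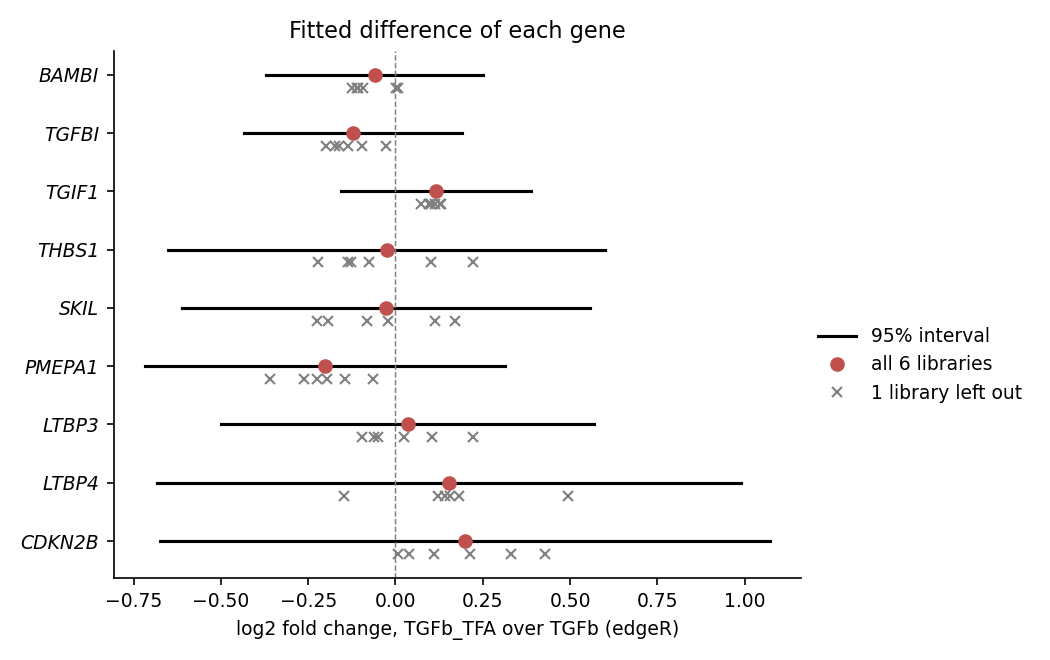
Fitted log2 fold change of each gene, TGFb_TFA over TGFb, from the deposited estimated counts, with its 95% interval (black line, 3 libraries a group). Grey crosses are the same fit with 1 library left out; all 9 intervals hold 0, and the crosses of SKIL, THBS1, BAMBI, LTBP3 and LTBP4 lie on both sides of 0.

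**Figure D2:**
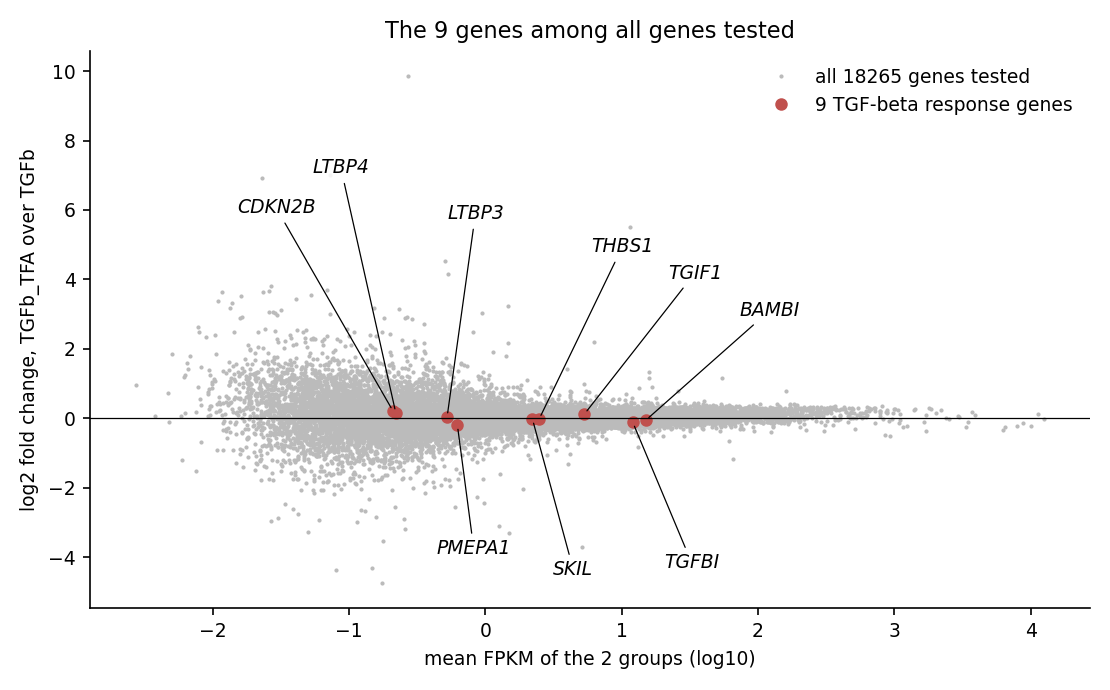
Log2 fold change, TGFb_TFA over TGFb, against the mean FPKM of both groups (log10) for the 18265 genes tested (grey). The 9 response genes (red) lie between -0.20 and 0.20, within the band of the other genes at their level.

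The libraries held 60361756 to 68745953 estimated counts and 23096 to 24159 genes above 0. TGFb_TFA 3 differed from the rest by transcript length. Relative to the 6-library mean (log2 CPM), the median of the shortest 10% of genes was 0.42 and that of the longest 10% was -0.41. Each 10% held 1200 genes, taken from a smaller set than the genes tested. TGFb 2 leaned the same way more weakly (0.11 and -0.18), and the other 4 libraries leaned the opposite way (shortest genes -0.16 to -0.09, longest genes 0.12 to 0.20). Epithelial markers of the line were abundant in every library: 11 markers in the table summed to 1422 to 1580 FPKM in TGFb_TFA libraries and 1531 to 1821 FPKM in TGFb libraries. VIL1 and LGALS4, markers of differentiated enterocytes named after their values were seen, were near 0 in both groups (means of 0.173 and 0.120 FPKM with TFA, 0.264 and 0.0740 FPKM without). Other intestinal markers of the same list were not near 0. KRT20 had 66.1 FPKM with TFA and 64.0 FPKM without, and CDX2 had 11.5 FPKM with TFA and 10 FPKM without. In bulk RNA, fewer cells that express a gene and less of its RNA per cell cannot be told apart.

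The level of the 9 genes spanned a wide range. Over the 6 libraries BAMBI was highest (mean 15.0 FPKM), followed by TGFBI (12.1), TGIF1 (5.33), THBS1 (2.48), SKIL (2.22), PMEPA1 (0.624), LTBP3 (0.524), LTBP4 (0.221) and CDKN2B (0.211). FPKM is a level per transcript length, so these values can be set side by side. BAMBI lay above TGFBI in all 6 libraries, although the ranges of these genes met (13.6 to 16.5 FPKM for BAMBI and 10.5 to 14.1 FPKM for TGFBI). THBS1 and SKIL did not differ beyond their spread, with THBS1 the higher in 4 of 6 libraries. The same held for PMEPA1 and LTBP3 (PMEPA1 higher in 3 of 6) and for LTBP4 and CDKN2B (LTBP4 higher in 3 of 6). All other neighbours in this order had ranges that did not meet.

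**Figure D3:**
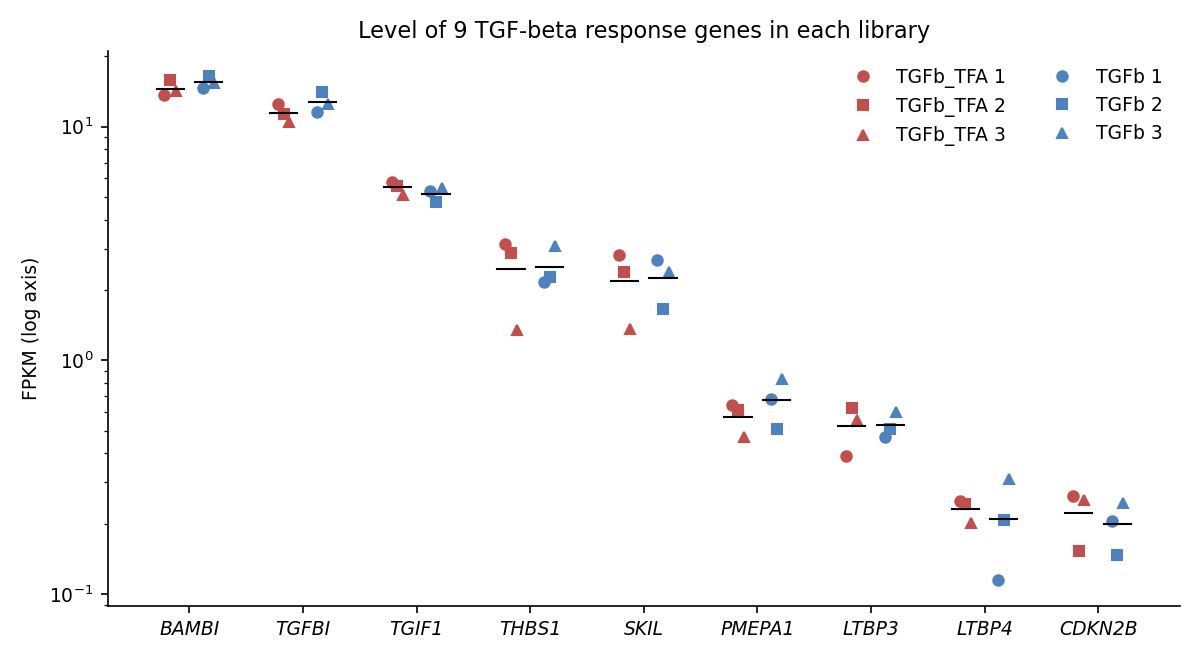
FPKM of the 9 genes in each library (log axis), ordered by mean level, with TGFb_TFA libraries in red and TGFb libraries in blue; black bars are group means of 3 libraries. The groups overlap in every gene. TGFb_TFA 3 (red triangle) is the lowest of its group in TGFBI, TGIF1, THBS1, SKIL, PMEPA1 and LTBP4. In CPM this does not hold for TGFBI and TGIF1.

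SMAD3 and SMAD4 recognise the letters GTCT, or AGAC on the opposite strand. Windows of 300 bases around the start sites of SKIL, THBS1, BAMBI and TGFBI are shown. The first pair varied together over the libraries, and the last pair are the most abundant of the 9 genes. Pearson's r of SKIL with THBS1 was 0.71, and 0.24 with each library's trend along transcript length removed. Other pairs of the 9 genes had a larger r, and control by a shared promoter sequence was not tested. The sequences are RefSeq's (GRCh38.p14), each from 250 bases before to 50 bases after the start, 5′ to 3′ on the gene's own strand, with GTCT and AGAC in capitals.
SKIL (chr3:170357465-170357764, plus strand): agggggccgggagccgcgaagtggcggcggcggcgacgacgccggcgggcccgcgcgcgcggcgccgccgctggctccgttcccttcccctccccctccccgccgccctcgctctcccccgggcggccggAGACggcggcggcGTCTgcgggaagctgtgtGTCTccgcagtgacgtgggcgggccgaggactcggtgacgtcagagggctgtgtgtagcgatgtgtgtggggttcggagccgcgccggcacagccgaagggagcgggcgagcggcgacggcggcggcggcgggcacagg
THBS1 (chr15:39580829-39581128, plus strand): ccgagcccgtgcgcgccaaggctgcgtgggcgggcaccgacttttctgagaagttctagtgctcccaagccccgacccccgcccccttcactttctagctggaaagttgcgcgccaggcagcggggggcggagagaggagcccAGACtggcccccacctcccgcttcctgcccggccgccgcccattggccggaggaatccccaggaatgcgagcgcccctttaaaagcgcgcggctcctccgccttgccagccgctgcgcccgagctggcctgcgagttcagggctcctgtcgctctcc
BAMBI (chr10:28677271-28677570, plus strand): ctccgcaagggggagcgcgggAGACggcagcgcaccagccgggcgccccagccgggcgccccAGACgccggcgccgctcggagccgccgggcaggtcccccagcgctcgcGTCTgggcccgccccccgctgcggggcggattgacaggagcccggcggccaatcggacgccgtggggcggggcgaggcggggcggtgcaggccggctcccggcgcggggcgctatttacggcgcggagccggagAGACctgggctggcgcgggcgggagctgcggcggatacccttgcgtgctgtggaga
TGFBI (chr5:136028738-136029037, plus strand): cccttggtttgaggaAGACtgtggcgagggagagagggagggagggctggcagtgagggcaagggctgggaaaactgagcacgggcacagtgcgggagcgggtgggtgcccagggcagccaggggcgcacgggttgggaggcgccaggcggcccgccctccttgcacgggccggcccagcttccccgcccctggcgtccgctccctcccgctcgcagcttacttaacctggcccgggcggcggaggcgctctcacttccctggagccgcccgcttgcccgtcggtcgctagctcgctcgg

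All 9 genes matched RefSeq by symbol, with 20 start sites in all (5 genes had 1 start, TGIF1 had 7 and PMEPA1 had 4). GTCT or AGAC was present in 19 of the 20 windows, with 4 copies in BAMBI, 3 in SKIL and 1 each in THBS1 and TGFBI. These 4 letters are common: 84.0% of 35116 windows of the same length hold them, with a median of 2 copies. The longer form CAGAC or GTCTG, which contains the shorter one, was present in 13 of 20 windows, against 45.3% of all windows. Many of these windows belong to TGIF1 and PMEPA1, and some windows of 1 gene overlap, so they are not separate cases. Counted by gene, 7 of the 9 held the longer form in at least 1 window. That count cannot be set against a share of windows. No window of the 9 genes held the palindrome GTCTAGAC, which is in 0.202% of all windows. These matches describe the letters in the windows and say nothing of binding in these cells.

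SKIL encodes SnoN, a nuclear protein that binds SMADs and represses their targets, and is itself a rapid target of TGF-β. The gene (ENSG00000136603) lies on chromosome 3 from 170357678 to 170396835 on the plus strand (GRCh38). Its level was 2.81, 2.39 and 1.36 FPKM in TGFb_TFA 1, 2 and 3, against 2.69, 1.66 and 2.39 FPKM in TGFb 1, 2 and 3. TGFb_TFA 3 and TGFb 2 were the low libraries and the other 4 lay close together, so that the groups overlapped fully. The log2 fold change was -0.03 (SE 0.25), a ratio of 0.981 with a 95% interval of 0.654 to 1.47. Without TGFb_TFA 3 the log2 fold change was 0.17, and without TGFb_TFA 1 it was -0.23, neither called.

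TGIF1, a homeodomain protein that recruits corepressors to SMADs, was the gene with the lowest unadjusted p of the 9 (0.347, edgeR). It lies on chromosome 18 from 3411608 to 3459978 on the plus strand (ENSG00000177426). In FPKM it had 5.79, 5.59 and 5.08 in TGFb_TFA 1, 2 and 3, against 5.31, 4.75 and 5.44 in TGFb 1, 2 and 3, and the groups overlapped. Scaled for depth, the counts of TGIF1 were 50.9, 48.9 and 52.1 CPM in TGFb_TFA libraries, against 47.7, 43.8 and 48.6 CPM in TGFb libraries. On the CPM scale the groups did not overlap, by a margin between TGFb_TFA 2 and TGFb 3 that was smaller than the spread within either group. Non-overlap in CPM was found for 1 of the 9 genes, against 7.91% of all genes tested (4.58% with TFA higher, as in TGIF1, and 3.33% with TFA lower). The ratio was 1.08 (95% interval 0.898 to 1.31), the narrowest interval of the 9, and TGIF1 also varied least over the 6 libraries (SD of log2 CPM 0.09).

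PMEPA1 encodes a membrane protein that holds SMAD2 and SMAD3 away from the receptor and is induced by TGF-β. It lies on the minus strand of chromosome 20, 57648392 to 57711536 (ENSG00000124225). Its level was 0.643, 0.610 and 0.470 FPKM in TGFb_TFA 1, 2 and 3, against 0.682, 0.508 and 0.832 FPKM in TGFb 1, 2 and 3. In FPKM, TGFb 3 was the highest and TGFb_TFA 3 the lowest, and the other 4 libraries were interleaved. In CPM the lowest was TGFb 2 (3.30, against 3.41 in TGFb_TFA 3). The log2 fold change of PMEPA1, -0.20 (SE 0.22), was the lowest of the 9 genes, and moved to -0.36 without TGFb 2 and to -0.07 without TGFb 3 (neither called). The antisense gene NKILA overlaps 343 of its exon bases on the other strand in GENCODE 29 and had 0.239 ± 0.0203 FPKM with TFA and 0.215 ± 0.113 FPKM without (SD, n = 3 each). The sources used here do not say whether strand was used in counting, so reads in that overlap may belong to either gene.

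BAMBI, a receptor-like membrane protein that lacks a kinase domain and blocks the type I receptor, was the most abundant of the 9 genes. It lies on chromosome 10 from 28677510 to 28682932 on the plus strand (ENSG00000095739). It had 13.6, 15.8 and 14.2 FPKM in TGFb_TFA 1, 2 and 3, against 14.7, 16.5 and 15.4 FPKM in TGFb 1, 2 and 3. All values lay within a narrow band, with TGFb_TFA 1 lowest and TGFb 2 highest. The means were 14.5 ± 1.11 FPKM with TFA and 15.5 ± 0.907 FPKM without (SD, n = 3 each), and the fitted ratio was 0.959 (95% interval 0.773 to 1.19). As background, BAMBI also responds to Wnt signalling in colorectal cells. Any part of Wnt signalling in the level seen here was not tested.

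CDKN2B encodes p15INK4b, an inhibitor of CDK4 and CDK6 through which TGF-β arrests epithelial cells in G1. It was the lowest of the 9 genes. It lies on the minus strand of chromosome 9, 22002903 to 22009305 (ENSG00000147883). Its estimated counts were 72, 43 and 70 in TGFb_TFA 1, 2 and 3, against 64, 45 and 71 in TGFb 1, 2 and 3, which correspond to 0.262, 0.153 and 0.252 FPKM with TFA and 0.206, 0.147 and 0.246 FPKM without. Library 2 was the lowest in both groups. In libraries 1 and 3 the estimated counts of the groups were interleaved, while the FPKM values with TFA lay above those without. The ratio of 1.15 had the widest interval of the 9 (0.627 to 2.10), so a rise of up to 2.10-fold lies within what these libraries allow. Its log2 fold change of 0.20 was 0.43 without TGFb_TFA 2 and 0.0063 without TGFb_TFA 3 (neither called). The antisense gene CDKN2B-AS1 shares no exon base with it in GENCODE 29 and was near 0 (0.0126 FPKM with TFA and 0.0100 FPKM without).

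TGFBI, a secreted matrix protein named for its induction by TGF-β, had 12.5, 11.4 and 10.5 FPKM in TGFb_TFA 1, 2 and 3, against 11.5, 14.1 and 12.5 FPKM in TGFb 1, 2 and 3. It lies on chromosome 5 from 136028988 to 136063818 on the plus strand (ENSG00000120708). TGFb 2 was the highest, and without it the log2 fold change of -0.12 (SE 0.13) shrank to -0.03. The means were 11.5 ± 1.03 FPKM with TFA and 12.7 ± 1.29 FPKM without (SD, n = 3 each). The ratio was 0.919, with a 95% interval of 0.740 to 1.14.

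THBS1 encodes thrombospondin 1, a matrix glycoprotein that can release TGF-β from its latent complex and is itself induced by TGF-β. It lies on chromosome 15 from 39581079 to 39599466 on the plus strand (ENSG00000137801). It had 3.15, 2.87 and 1.35 FPKM in TGFb_TFA 1, 2 and 3, against 2.16, 2.28 and 3.07 FPKM in TGFb 1, 2 and 3. The TFA group held both the highest library and the lowest one. The log2 fold change of -0.03 (SE 0.27) was 0.22 without TGFb_TFA 3 and -0.22 without TGFb_TFA 1, so its sign rested on single libraries, and no setting called it. Genes on the other strand overlap THBS1 in GENCODE 29: the antisense gene AC037198.2 shares 411 of its exon bases and FSIP1 shares 448. FSIP1 had 0.294 ± 0.108 FPKM with TFA and 0.530 ± 0.146 FPKM without (SD, n = 3 each; log2 fold change -0.83, SE 0.34).

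LTBP3 and LTBP4 encode latent TGF-β binding proteins, which carry the latent ligand into the matrix. LTBP3 lies on the minus strand of chromosome 11, 65538805 to 65557959 (ENSG00000168056), and LTBP4 on chromosome 19 from 40592883 to 40629818 on the plus strand (ENSG00000090006). LTBP3 had 0.391, 0.623 and 0.553 FPKM in TGFb_TFA 1, 2 and 3, against 0.467, 0.509 and 0.602 FPKM in TGFb 1, 2 and 3. Its means were nearly equal, 0.523 ± 0.119 FPKM with TFA and 0.526 ± 0.0693 FPKM without (SD, n = 3 each), and its ratio was 1.02 (95% interval 0.708 to 1.48). LTBP4 had 142, 142 and 113 estimated counts in TGFb_TFA 1, 2 and 3, against 74, 129 and 185 in TGFb 1, 2 and 3. The TGFb group held both the lowest and the highest library of LTBP4, while the TFA libraries lay between them. The SD of its log2 CPM was accordingly 0.06 within TGFb_TFA and 0.71 within TGFb. Its ratio was 1.11 (95% interval 0.623 to 1.98), and its log2 fold change of 0.15 was -0.15 without TGFb 1 and 0.49 without TGFb 3 (neither called).

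Over the 6 libraries some of the 9 genes varied together, and the trend of level along transcript length also differed between the libraries. SKIL and THBS1, whose lengths rank at the 79.7th and 86.0th percentile of genes tested, lay at -0.49 and -0.65 in TGFb_TFA 3 and at 0.33 and 0.34 in TGFb_TFA 1, relative to their means over the 6 libraries (log2 CPM). Pearson's r between them was 0.71. BAMBI, a shorter gene (21.0th percentile), went the other way from SKIL (r = -0.87). With each library's trend along length removed, the r of SKIL with THBS1 was 0.24 and that of SKIL with BAMBI 0.05. The other pairs among the 5 with the largest r in size were TGIF1 with CDKN2B (0.75 before and 0.53 after), BAMBI with LTBP3 (0.745 before and -0.14 after) and SKIL with PMEPA1 (0.67 before and 0.46 after). The SD of SKIL over the libraries was 0.34 before and 0.22 after this step, and that of THBS1 0.38 before and 0.24 after. These values describe 6 libraries whose points share depth and length trend.

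Length did not rank all 9 genes in TGFb_TFA 3. LTBP3, the longest of them (91.0th percentile), lay at 0.27 in that library, above its mean, and TGIF1 (81.4th percentile) at 0.10. For these genes the step that removed the trend widened the spread: the SD of LTBP3 was 0.28 before and 0.41 after, and that of TGIF1 0.09 before and 0.18 after. It also widened for TGFBI (0.13 before and 0.22 after) and LTBP4 (0.47 before and 0.49 after), and narrowed for the rest of the 9 genes. With the trend removed in the test itself, the log2 fold changes of the 9 genes ran from -0.17 (PMEPA1) to 0.22 (LTBP4), and none was called.

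**Figure D4:**
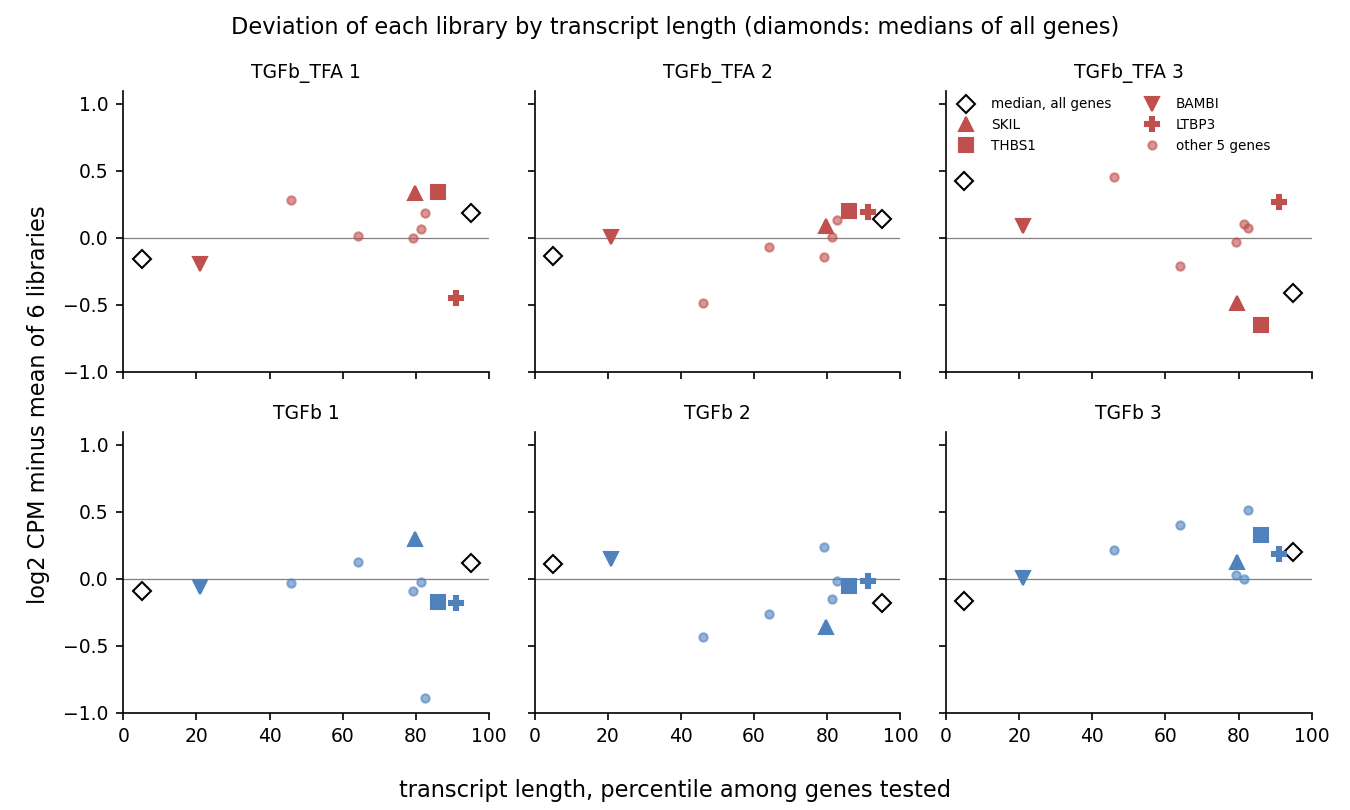
Deviation of each gene from its mean over the 6 libraries (log2 CPM) against transcript length (percentile among genes tested), 1 panel a library. Open diamonds are the medians of the shortest and longest 10% of genes (1200 genes each). These were taken from a smaller set than the genes tested. In TGFb_TFA 3 the diamonds are at 0.42 and -0.41, with SKIL at -0.49, THBS1 at -0.65 and LTBP3 at 0.27.

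Other genes with the profile of BAMBI and TGIF1 over the 6 libraries were looked up among 10481 genes with a mean of at least 1 FPKM. The nearest to BAMBI in log2 CPM were NUDT4P2 (r = 0.99), STAP2 (r = 0.99) and ARFRP1 (r = 0.98). The nearest to TGIF1 were PRPF4 (r = 0.99), AP002990 (ENSG00000255508, r = 0.98) and PRR7 (r = 0.98). Over 6 libraries and so many genes, values this high describe likeness of profile only.

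The wider pathway was read from lists of genes. Of 28 tested genes of a list of other SMAD-induced targets (29 in the table), none was called by edgeR, 2 were higher and 1 lower at an unadjusted p under 0.05, against 1.07% and 0.761% of all genes tested. The lower one was BHLHE40, a transcriptional repressor, with 1.83 FPKM with TFA and 2.84 FPKM without (log2 fold change -0.63, SE 0.23, groups that did not overlap). The higher ones were FN1, fibronectin, and MMP2, a matrix protease (log2 fold changes 1.02, SE 0.43, and 2.48, SE 0.86). Both sat at low levels, with means of 0.667 and 0.299 FPKM with TFA and 0.327 and 0.0528 FPKM without. FN1 had 0.373, 1.21 and 0.420 FPKM in TGFb_TFA 1, 2 and 3, against 0.270, 0.284 and 0.427 FPKM in TGFb 1, 2 and 3, so its mean with TFA rested mainly on TGFb_TFA 2. The most abundant targets were SOX4, a transcription factor (-0.04, SE 0.11), JUNB, an AP-1 subunit (-0.15, SE 0.12), and TPM1, a tropomyosin (-0.01, SE 0.13). CCN2, a matricellular protein widely used as a readout of the pathway and named here after its value was seen, had a log2 fold change of -0.15 (SE 0.23). The list's median was -0.03.

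Among genes that SMADs repress, ID2, ID1 and ID3, inhibitors of bHLH factors, had 112, 38.8 and 18.03 FPKM with TFA, and 114, 37.1 and 16.95 FPKM without. Of the 5 tested (with MYC and CDC25A) none was called and 0 had an unadjusted p under 0.05. Both counts were also 0 for the 20 tested genes of the feedback and corepressor list, with a median of -0.03. Its most abundant genes were STRAP, which binds the receptor (log2 fold change 0.03, SE 0.14), FKBP1A, which holds the type I receptor inactive (0.01, SE 0.13), and the deacetylase HDAC1 (-0.02, SE 0.13). The inhibitory SMAD7, named after its value was seen, had 0.17 (SE 0.14).

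Genes of the latent complex and its activation had 0 called of 14 tested, 1 of them at an unadjusted p under 0.05 (FBN1, fibrillin 1, higher at 0.1003 FPKM with TFA and 0.0570 FPKM without; log2 fold change 0.83, SE 0.31). The integrin chains ITGB1 and ITGAV and the ligand TGFB2 were the most abundant of this list, with log2 fold changes of -0.05, -0.21 and -0.23 (SE 0.16, 0.26 and 0.26). Of 8 tested receptors and SMADs, 7 were fitted below 0 and none was called or had an unadjusted p under 0.05; the fitted values of 48.1% of all genes tested were below 0. The most abundant were TGFBR2 (-0.12, SE 0.19), TGFBR1 (-0.02, SE 0.25) and SMAD4 (-0.03, SE 0.13). The list's median was -0.09.

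Paralogs of the 9 genes (11 tested, 0 called by edgeR, 0 at an unadjusted p under 0.05) were at a median of 0.18, and DESeq2 called COMP, a thrombospondin, which edgeR did not test. COMP was listed at 0 in 5 libraries and had 0.336 FPKM in TGFb_TFA 3. LTBP1, the most abundant LTBP, had -0.31 (SE 0.24), and the INK4 genes CDKN2D and CDKN2C had 0.18 (SE 0.19) and 0.27 (SE 0.17). In the list around the G1 brake on which CDKN2B acts (13 tested, 0 called, 0 at an unadjusted p under 0.05, median 0.14), CDK4, CCND1 and the inhibitor CDKN1B were the most abundant (0.18, SE 0.19; -0.08, SE 0.14; 0.04, SE 0.11).

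**Figure D5:**
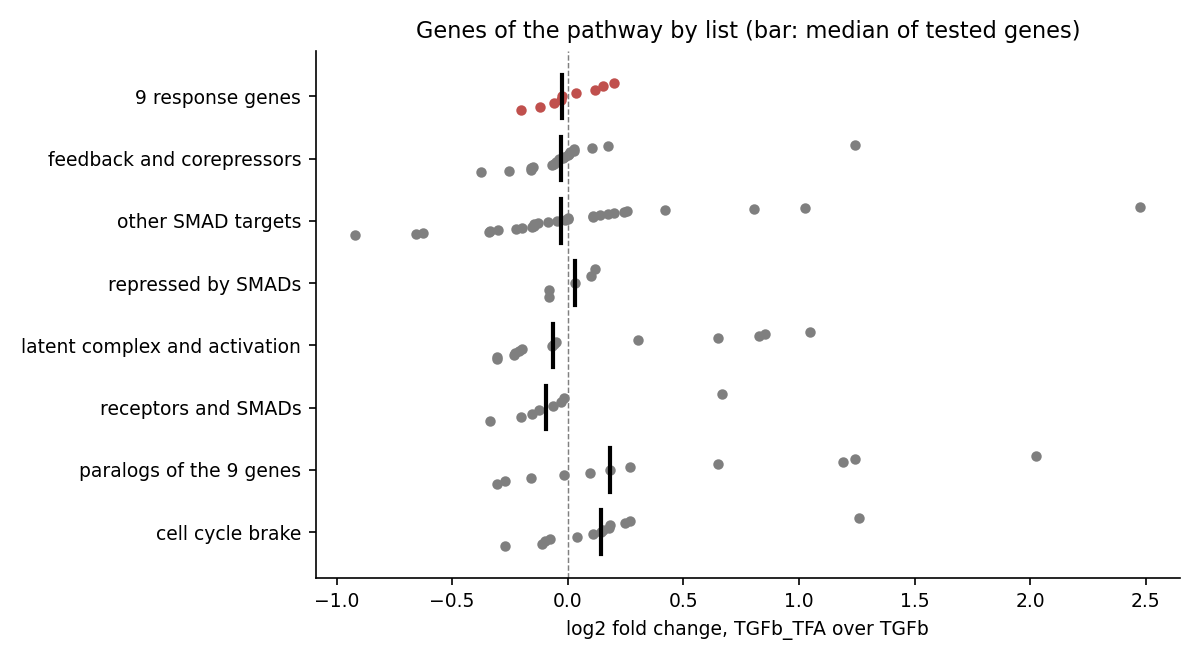
Log2 fold change, TGFb_TFA over TGFb, of every tested gene of each list (points) with the list's median (bar). The 9 response genes (red) lie between -0.20 and 0.20 with a median of -0.03; the points above 0.5 in the other lists are genes at low FPKM, such as MMP2, FN1 and FBN1.

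Fibroblast markers were low in both groups, and their sums did not overlap between the groups. The 10 fibroblast markers in the table summed to 0.464, 1.97 and 2.40 FPKM in TGFb_TFA 1, 2 and 3, against 0.0630, 0.312 and 0.373 FPKM in TGFb 1, 2 and 3. All 7 tested markers were fitted above 0, with a median log2 fold change of 2.85, and 0 were called by edgeR. At an unadjusted p under 0.05, 4 of the 7 had a positive log2 fold change, against 1.07% of all genes tested: the collagens COL1A1 (2.93, SE 1.01), COL1A2 (2.85, SE 1.17) and COL6A3 (3.56, SE 1.04) and the growth factor receptor PDGFRA (3.39, SE 1.25). The filter before the test keeps a gene high enough in as many libraries as 1 group holds. A marker near 0 without TFA, such as PDGFRA, could therefore be tested only if it was high with TFA. The direction, median and share of the 7 are thus partly set by the filter and give no support for a rise. DESeq2 called COL6A3 (adjusted p = 0.0343). COL3A1, DCN and LUM, named after their values were seen, were listed at 0 in every TGFb library. Endothelial markers summed to 2.04 to 2.38 FPKM with TFA and 1.55 to 1.99 FPKM without, and haematopoietic markers to 4.45 to 5.47 FPKM with TFA and 3.98 to 5.07 FPKM without. Fibroblasts also express THBS1, TGFBI and the LTBP genes. In TGFb_TFA 3, the library with the highest fibroblast sum, THBS1 was at its lowest of the 6 libraries (15.6 CPM). LTBP3 was at its highest there in CPM (7.59) but not in FPKM (0.553, below TGFb_TFA 2 and TGFb 3). TGFBI was at its lowest there in FPKM but not in CPM. FN1 and MMP2 were highest in TGFb_TFA 2 (1.21 and 0.640 FPKM), and FBN1 had 0.103, 0.114 and 0.0841 FPKM in TGFb_TFA 1, 2 and 3. The part of these markers in the values of FN1, MMP2, FBN1, THBS1, TGFBI and the LTBP genes was not tested.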

How the data were processed

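Poly(A) RNA of 6 DLD-1 libraries was sequenced. Library preparation marked strand with dUTP and added molecular identifiers, per the labels' protocols. Tools named in the submitters' processing notes are cutadapt 1.9, HISAT2 2.0.4 and StringTie 1.3.4d, and the build is GRCh38; their roles are not given. The authors deposited FPKM values and whole-number estimated counts for each gene and library. Between 1032 and 1271 genes of a library had a count of 4, and only 601 to 685 a count of 3, so the totals may overstate fragments. Estimated counts were tested in edgeR 4.0.16 (R 4.3.3): filterByExpr, TMM, glmQLFit and glmQLFTest with group only, 2-sided, Benjamini-Hochberg over 18265 genes. SE is the log2 fold change over the square root of F. CPM uses TMM-scaled totals. Length is the ratio of count to FPKM. DESeq2 1.42.0, limma 3.58.1 on log2(FPKM + 0.5) for genes of mean FPKM of at least 0.5, and other settings were alternatives; removing the length trend from the correlations was added after seeing the data. The code was tested on simulated data. Exon overlaps come from GENCODE 29. Nothing says that the libraries are separate cultures, so p-values measure the spread between these libraries, which may be technical. Within groups, every library pair differed beyond sampling noise (chi-square per degree of freedom at least 12.0, or 3.44 with counts divided by 4). Genes named from each pathway list, other than those said to be named after their values were seen, were those called, those at an unadjusted p under 0.05 and the 3 of highest mean FPKM. Marker genes were named after their values were seen. The 9 genes and all lists were chosen with earlier results of these data known.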

Additional observations from a re-analysis of the deposited data

How the results depend on the processing

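None of the 9 genes was called in any of the 18 alternatives, and 133 of 152 refitted values kept their sign. Over all genes, 2 were called, against 15 by DESeq2 (13 higher, 2 lower), 1 with the replicate block and 1 with the replicate block and length-trend offsets together. Leaving out 1 library gave 1 to 3 calls. The sign of SKIL turned with length-trend offsets (0.0052), with those and the replicate block (0.0068) and without TGFb 1 and TGFb_TFA 3 (0.30). The last setting also turned THBS1 (0.11), LTBP3 (-0.19) and LTBP4 (-0.13). LTBP3 turned in limma on log2(FPKM + 0.5), log2(FPKM + 0.1) and log2(FPKM + 1) as well (-0.0099, -0.022 and -0.0056). With 1 library left out, values ran from -0.23 to 0.17 for SKIL, -0.22 to 0.22 for THBS1, -0.12 to 0.0064 for BAMBI, -0.10 to 0.22 for LTBP3 and -0.15 to 0.49 for LTBP4; the cause was not tested. PMEPA1, TGFBI, TGIF1 and CDKN2B kept their sign wherever they were fitted. CDKN2B and LTBP4 were too low for the fits on FPKM. Of 126 counts over the pathway lists, 1 changed (COMP, by DESeq2). Same-numbered libraries did not deviate together (r = 0.15, -0.47 and -0.45 for numbers 1, 2 and 3), and no TGFb_TFA library correlated best with the TGFb library of its number. CDKN2B and LTBP4 had the widest intervals.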
